A study of Vitis vinifera with 72 samples.

Results

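A set of 100 transcripts of the grapevine berry had a higher level in 2012 than in 2011 in every vineyard setting sampled before ripening. The genes were chosen from the pre-veraison (PV) libraries by the smallest of their 6 season differences, 1 for each pairing of a cultivar with a growing area. The gene IDs eligible for that choice numbered 13244, which are those with a mean of at least 5 FPKM over the 2012 PV libraries and outside 2 excluded ID series. FPKM counts the fragments of a gene relative to the length of its transcript and to the fragments mapped in the library. All 100 were among the 20443 genes tested, out of 29971 gene IDs. Because the PV season difference chose the genes, their PV values are a description and carry no test. The mid-ripening (MR) libraries took no part in the choice, and the tests below compare MR groups. The main fit took the spread behind these tests from the replicates of all 72 libraries, PV ones included.

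Veraison is the onset of ripening in the grape berry. Before it the berry is hard and green and accumulates organic acids and tannins. After it the berry softens, stores sugars and, in red cultivars, makes anthocyanin pigments in the skin. The transcripts of the pericarp, the skin and flesh around the seeds, are known to be replaced on a wide scale across this change.

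The study sampled pericarp of the red wine cultivars Cabernet Sauvignon and Sangiovese in Bolgheri, Montalcino and Riccione, 3 Italian areas, in 2011 and 2012. Each cultivar and area was sampled in each year at PV (code 79 on the BBCH scale of plant development) and at MR (code 83), with 3 biological replicates, which gave 24 groups and 72 libraries. Both years at a stage thus share the cultivars, areas and developmental code and differ by season, and each area stands for 1 site as far as the labels tell. Progress within a stage beyond this code was not compared between the years. The labels name no treatment. A season and a sequencing batch cannot be told apart, since the labels give no batch.

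The files do not pair the IDs with gene names, and of the 29971 IDs 0 were found among the 29591 genes of the RefSeq table used here. The 100 genes are therefore given by ID, with no name, role or sequence, and the labelled tissue was not checked against marker genes. Replicates correlated across genes at 0.982 or more, with 0 identical pairs of libraries. The values of a library summed to between 813505 and 1014766 FPKM, and read numbers are unknown. Relative depth, read from the smallest steps between low values, ranged from 0.513 to 2.20 times a typical library, and both extremes were replicates of Cabernet Sauvignon at PV in Bolgheri in 2012.

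At PV the level of the typical gene among the 100 was well below that of other eligible genes in 2011 and well above it in 2012. It was 11.4 FPKM in 2011 and 51.6 FPKM in 2012 (medians over the 100 genes), while the median over the eligible genes was 21.5 and 22.02 FPKM. The summed level of the 100 was 2758 FPKM (SD 556, n = 18) in 2011 and 8780 FPKM (SD 2355, n = 18) in 2012. In 2011, 47 of the genes were below 10 FPKM and 4 below 1 FPKM, and in 2012, 27 were at 100 FPKM or more. On the log2(FPKM + 1) scale the median of the season differences, each averaged over the 6 pairs, was 1.79, which is 3.46-fold, with a range from 1.02 to 3.92. Over all tested genes the median was -0.03. All-positive differences in the 6 pairs were found in 1502 eligible genes (11.3%), and all-negative differences in 772 (5.83%). The minimum level was set on the 2012 libraries alone, which favours positive differences, so nothing is read from the gap between these counts.

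VIT_05s0020g04780 had the highest score, with a smallest season difference of 2.48. At PV its lowest, median and highest libraries were 1.96, 10.5 and 28.5 FPKM in 2011, and 39.4, 92.1 and 171.6 FPKM in 2012. Every 2012 library was above every 2011 library, although the 2011 libraries of Cabernet Sauvignon from Montalcino held 1 at 28.5 FPKM beside 2.43 and 1.96 FPKM. At MR it was near 0 in 2011, at 0.21 FPKM (SD 0.26, n = 18), and low in 2012, at 2.80 FPKM (SD 2.20, n = 18).

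VIT_10s0003g03790, with a score of 2.31, had PV libraries of 1.15, 6.82 and 26.8 FPKM (lowest, median and highest) in 2011 and of 17.4, 61.2 and 154.8 FPKM in 2012. VIT_00s0301g00070, with a score of 2.25, had 2.35, 11.5 and 29.1 FPKM in 2011 and 31.6, 88.7 and 168.4 FPKM in 2012. Only the first of these overlapped between the years over all 18 against 18 libraries. VIT_01s0026g00820, with a score of 2.16, had 1.96, 8.30 and 20.2 FPKM in 2011 and 16.1, 51.3 and 126.3 FPKM in 2012. VIT_01s0011g02360, with a score of 2.15, had 1.19, 6.87 and 22.6 FPKM in 2011 and 13.7, 47.1 and 169.7 FPKM in 2012. Both of these overlapped between the years, with their lowest 2012 libraries in Cabernet Sauvignon.

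**Figure D1:**
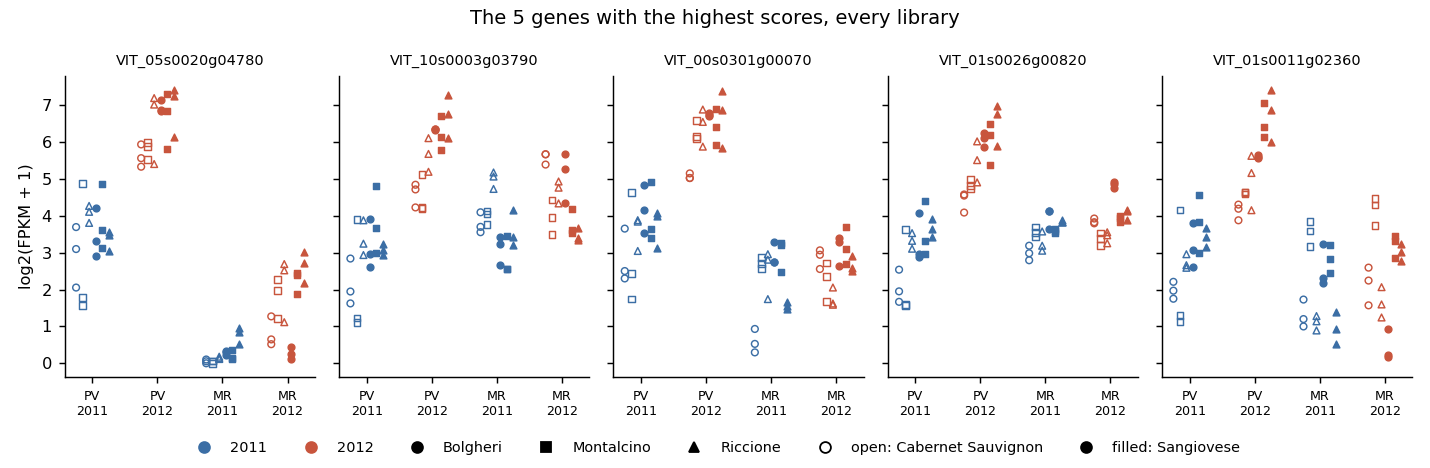
Each point is 1 library, as log2(FPKM + 1), for the 5 genes with the highest scores, by stage and season, with blue for 2011 and red for 2012, open symbols for Cabernet Sauvignon and filled ones for Sangiovese, and circles, squares and triangles for Bolgheri, Montalcino and Riccione. At PV every red point is above every blue one in VIT_05s0020g04780 and VIT_00s0301g00070, the colours overlap in the other 3 genes, and at MR they overlap in all 5.

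The plot of single libraries shows the 5 genes at separate levels at MR. VIT_05s0020g04780 was near 0 at MR in 2011 and low in 2012. By contrast, VIT_10s0003g03790 stood at 14.2 FPKM (SD 8.83) in 2011 and 24.4 FPKM (SD 15.1) in 2012, with n = 18 each.

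Abundant transcripts also entered the list. The highest 2012 PV level was that of VIT_07s0005g00660, with 175.7, 327.9 and 614.0 FPKM in the lowest, median and highest 2011 library and 430.4, 791.6 and 1226 FPKM in 2012. VIT_16s0050g01240 followed, with a mean of 249.7 FPKM (SD 82.5, n = 18) in 2011 and 582.0 FPKM (SD 173.2, n = 18) in 2012. VIT_18s0001g07090 had 132.4 FPKM (SD 29.5) and 367.2 FPKM (SD 102.4), and its 2011 and 2012 libraries did not overlap. The widest mean difference was that of VIT_18s0072g00260, at 15.1-fold from 0.39 FPKM in 2011, where the scale of log2(FPKM + 1) understates the change.

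At the edge of the rule, VIT_02s0025g04480 was the last gene taken, with a score of 0.795 and means of 2.52 and 6.47 FPKM. The first gene left out, VIT_10s0003g05430, had a score of 0.789 and means of 5.59 and 26.9 FPKM. The next, VIT_12s0057g00420, had 0.784 and means of 72.3 and 213.5 FPKM. The boundary therefore fell within a continuous run of scores. Of the 233 IDs in the excluded series, 64 reached 5 FPKM and 1 of these reached the score of the last gene taken.

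One vineyard setting set the score of most genes. Cabernet Sauvignon in Bolgheri gave the smallest of the 6 differences for 74 of the 100 genes, and its median difference over the genes was 1.11. The other medians were 1.90 in Cabernet Sauvignon from Montalcino and 1.69 from Riccione, and 2.01, 1.83 and 2.12 in Sangiovese from Bolgheri, Montalcino and Riccione. Sangiovese from Riccione gave the widest difference for 41 genes, Cabernet Sauvignon from Montalcino for 26 and Sangiovese from Bolgheri for 25. In Cabernet Sauvignon the 3 PV libraries of 2012 were all above the 3 of 2011 for 97 of the genes in Bolgheri (25.4% of all tested genes), 100 in Montalcino (19.5%) and 95 in Riccione (20.3%). In Sangiovese they were for 100 in Bolgheri (32%), 99 in Montalcino (29.2%) and 98 in Riccione (18%). For 92 genes this held in all 6 pairs (2.78%), and for 25 genes it held over all 18 against 18 PV libraries (0.489%). The rule chose the genes on these values, so nothing is read from the shares.

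The genes also differed together between replicate libraries of 1 group, which the rule, built on group means, did not use. In Sangiovese from Montalcino at PV in 2012, replicate 2 held the lowest of the 3 values for 97 of the 100 genes, against 25.9% of the eligible genes. In Sangiovese from Riccione at PV in 2012, replicate 3 was lowest for 96 genes (23.6% of the eligible), and replicate 3 was lowest in Cabernet Sauvignon from Bolgheri for 88 (31.7%) and from Riccione for 87 (19.6%). The median of the 100 genes spanned 1.01, 0.89, 0.32 and 1.03 between the replicates of these 4 groups on the log2 scale, where the median of the eligible genes spanned 0.04, 0.06, 0.02 and 0.08. Shared high values were found in both years. In 2012, replicate 3 of Sangiovese from Montalcino at PV was highest for 92 genes (27.4%). In 2011, replicate 2 was highest for 90 genes in Cabernet Sauvignon from Montalcino at PV (39.1%). Replicate 1 was highest for 90 in Sangiovese from Montalcino (34.3%) and for 89 in Sangiovese from Bolgheri (27.6%). Shared low values were found in 2011 too. Replicate 1 was lowest for 78 genes in Cabernet Sauvignon from Riccione (27.5%) and for 77 in Sangiovese from Riccione (39.6%).

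Relative depth in the 4 low 2012 replicates, in that order, was 1.03, 0.97, 2.20 and 1.04, so that the replicate from Bolgheri was the deepest of all libraries, and the part of depth in its low values was not tested. In the 3 high 2011 replicates it was 1.23, 0.99 and 1.02. In bulk pericarp, fewer cells of a type and less RNA per cell cannot be told apart in any of these values. When the rule was applied again without 1 of the 36 PV libraries at a time, 90 to 100 of the 100 genes were chosen again.

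**Figure D2:**
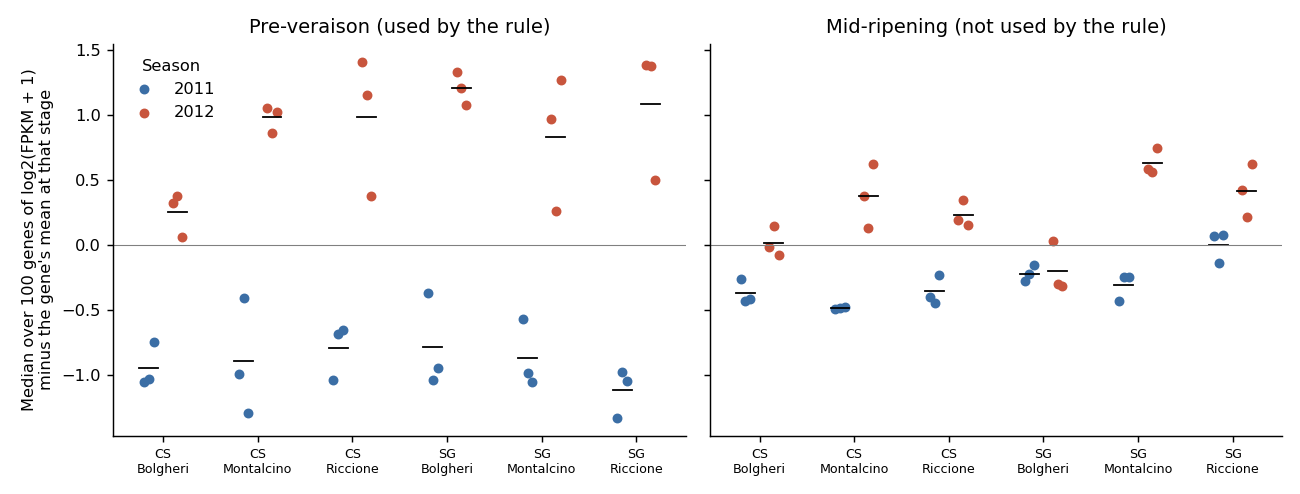
Each point is 1 library and gives the median over the 100 genes of log2(FPKM + 1) minus each gene's mean over the 36 libraries of that stage, for PV (left) and MR (right), by cultivar (CS, Cabernet Sauvignon; SG, Sangiovese) and area, with blue for 2011 and red for 2012; the black bar is the mean of 3 replicates. At PV the 2012 libraries of Cabernet Sauvignon from Bolgheri are low as a group, those of Cabernet Sauvignon Riccione, Sangiovese Montalcino and Sangiovese Riccione each hold 1 low library, and at MR the seasons overlap in Sangiovese from Bolgheri.

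The plot of library medians shows that the low 2012 replicates at PV stood above the 2011 replicates of their pair. They were at 0.06 in Cabernet Sauvignon from Bolgheri, where the other libraries were at 0.32 and 0.38, and at 0.26 in Sangiovese from Montalcino, 0.38 in Cabernet Sauvignon from Riccione and 0.50 in Sangiovese from Riccione. All 18 of the 2011 libraries were below 0, the highest at -0.37. The genes were chosen on these PV libraries, which favours this order, so it is only a description. At MR the replicates lay closer, with spans of 0.02 to 0.50 within groups.

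Some of the 100 genes are neighbours in the order of the gene IDs. In 7 runs, 16 genes stood next to another of the 100 among the IDs listed, for example VIT_00s0301g00060, VIT_00s0301g00070 and VIT_00s0301g00080, with PV means of 6.89, 12.8 and 38.3 FPKM in 2011 and 37.8, 84.6 and 196.6 FPKM in 2012. The genes came from 55 of the 960 ID series in the table. VIT_03s0017g held 4, in the adjacent couples VIT_03s0017g01400 with VIT_03s0017g01410 and VIT_03s0017g01450 with VIT_03s0017g01460. The 3 IDs listed between the couples were not eligible, with 2.57 FPKM or less in 2012, and their mean PV differences were between -0.26 and -0.08. VIT_16s0013g00390, VIT_16s0013g00440 and VIT_16s0013g00480 had means of 15.3, 18.6 and 16.3 FPKM in 2011 and 65.4, 76.2 and 67.2 FPKM in 2012. The ID VIT_16s0013g00450 between them, at 18.1 and 76.0 FPKM, missed the list with a smallest difference of 0.52.

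Among the 10 clusters in which 2 or more of the 100 lay within 6 listed IDs of each other, there were 26 of the genes and 22 other IDs. Of those 22, only 6 were eligible, and VIT_16s0013g00450 was the 1 with positive differences in all 6 pairs. Neighbours can be near-identical copies that share reads, and the libraries carried no strand, so values of adjacent genes may not be independent and were not tested for it.

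At MR, after veraison, most of the 100 genes were again higher in 2012. In limma's test, 80 rose and 0 fell, at an adjusted p under 0.05 with Benjamini-Hochberg adjustment over 20443 genes. Among all tested genes, 21.9% were higher and 19.6% lower by the same test, and among those with at least 5 FPKM over the 2012 PV libraries, 26.3% and 22.2%. At an unadjusted p under 0.05, 1 of the 100 was lower, against 22.9% of all tested genes. The median MR difference of the 100 was 0.54 on the log2 scale, or 1.46-fold, and that of all tested genes 0.00. Of the 100, 96 had a difference above 0, against 51.1% of all tested genes. The MR difference was larger than at PV for 2 of the genes. The choice on the PV difference favours a smaller one at MR, so nothing is read from this count. With a log2 difference of at least 1, 17 passed upward (0.455% of all tested genes) and 0 downward (0.611%).

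The median level at MR was also lower than at PV in each season. The median over the 100 genes was 6.34 FPKM in 2011 and 11.4 FPKM in 2012, with 17.2 and 17.3 FPKM for the eligible genes. In 2011, 26 genes had a mean below 1 FPKM and in 2012, 14. The summed level was 6284 FPKM (SD 1661, n = 18) in 2011 and 8075 FPKM (SD 1343, n = 18) in 2012, and VIT_07s0005g00660 alone made up 3617 and 4603 FPKM of these sums.

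The test takes the spread from replicates within groups. With the 12 MR group means as the units, which sets the season difference against its variation between cultivars and areas, 0 of the 100 genes passed the adjusted threshold. In that limma fit, 0 of all tested genes were higher (0%) and 1 was lower (0.00489%). Unadjusted p was under 0.05 upward for 56 of the 100 (6.42% of all tested genes) and downward for 0 (5.46%). Across the 6 pairs, 35 of the 100 were higher in 2012 in every pair (3.6% of all tested genes), 33 in 5 pairs, 20 in 4, 10 in 3 and 2 in 2. None (0) was lower in every pair (3.3% of all tested genes).

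**Figure D3:**
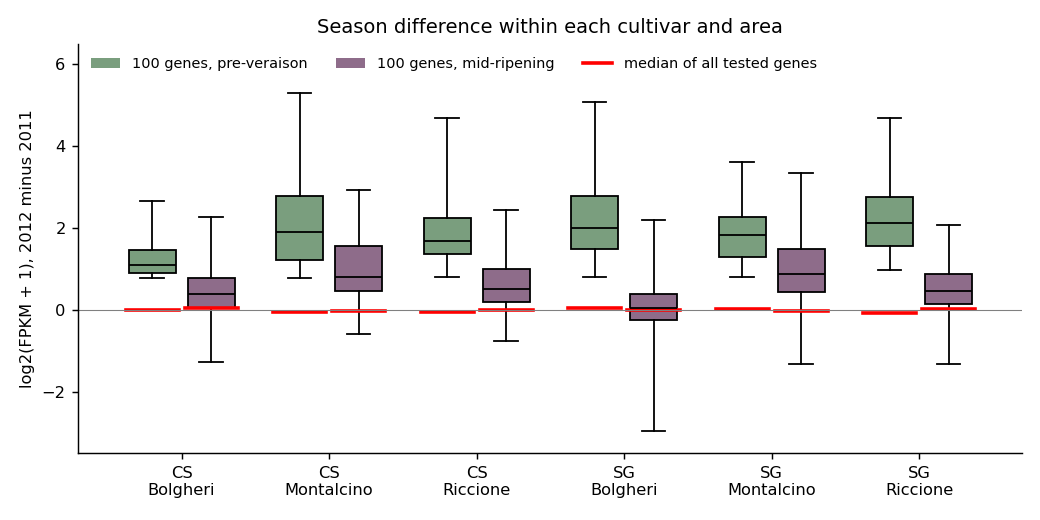
Boxes give the season difference (2012 minus 2011, log2(FPKM + 1)) of the 100 genes within each cultivar and area at PV (green) and MR (purple), with the median, quartiles and full range, and the red line is the median of all tested genes. The PV boxes are all above 0 by the rule. The MR medians run from 0.05 in Sangiovese from Bolgheri to 0.89 in Sangiovese from Montalcino, and every red line is near 0.

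The plot by pair shows where the MR difference was wide and where it was missing. Montalcino was widest in both cultivars, with a median of 0.82 in Cabernet Sauvignon and 0.89 in Sangiovese. In Riccione the medians were 0.52 and 0.48. In Bolgheri they were 0.40 in Cabernet Sauvignon and 0.05 in Sangiovese. In Sangiovese from Bolgheri, 54 of the 100 were above 0, near the share of 47.7% among all tested genes. The library medians of the 100 there averaged -0.22 in 2011 and -0.20 in 2012.

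Tested within each pair, limma called 60 of the 100 higher in 2012 in Cabernet Sauvignon from Montalcino (11.5% of all tested genes) and 58 in Sangiovese from Montalcino (10.1%). It called 39 higher in Cabernet Sauvignon from Riccione (9.45%) and 36 in Sangiovese from Riccione (18%). In Bolgheri it called 34 higher in Cabernet Sauvignon (24.6%) and 17 in Sangiovese (19.8%). Lower in 2012 were 13 in Sangiovese from Bolgheri (20.9%), 5 in Sangiovese from Riccione (12.9%), 4 in Cabernet Sauvignon from Bolgheri (14.7%), 2 in Sangiovese from Montalcino (14.7%) and 0 in Cabernet Sauvignon from Montalcino (15.3%) and from Riccione (6.02%). In Sangiovese from Bolgheri both shares were thus below the background. The 3 libraries of 2012 were all above the 3 of 2011 for 78 of the 100 in each Montalcino pair (15.5% of all tested genes in Cabernet Sauvignon, 15.6% in Sangiovese), for 62 (20%) and 52 (24.6%) in Riccione, and for 56 (31.5%) and 21 (20.1%) in Bolgheri, in that order of cultivars. Over all 18 against 18 MR libraries, the seasons overlapped for every one of the 100 genes, and 1 of all tested genes (0.00489%) had every 2012 library above every 2011 library.

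The season difference at MR differed between areas for 62 of the 100 genes in limma's F-test of the interaction, against 52% of all tested genes and 61.9% of those with at least 5 FPKM. That share is near the background. The direction among the areas was more uneven. With its sign kept, the difference was higher in Montalcino than in Bolgheri for 83 of the 100, against 42.5% of all tested genes. It was higher in Montalcino than in Riccione for 80, against 41.3%.

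VIT_03s0017g01450 had the widest MR difference among the 100, at 1.73 (SE 0.13, limma adjusted p = 3.02e-15). Its lowest, median and highest MR libraries were 0.28, 1.53 and 4.27 FPKM in 2011 and 1.33, 7.40 and 21.2 FPKM in 2012. In Cabernet Sauvignon from Montalcino it went from 0.47 FPKM (SD 0.18, n = 3) to 11.2 FPKM (SD 6.60, n = 3), and in Sangiovese from Montalcino from 1.77 (SD 0.24) to 15.4 (SD 5.36). In Sangiovese from Bolgheri it stood at 1.75 FPKM (SD 0.20) and 1.70 FPKM (SD 0.48), which overlap. The difference was above 0 in 5 of the 6 pairs.

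VIT_05s0094g00360 followed, at 1.66 (SE 0.14, limma adjusted p = 3.94e-14), from 2.14 FPKM (SD 1.60, n = 18) to 10.5 FPKM (SD 8.68, n = 18). It was higher in 2012 in 6 of 6 pairs and its replicates did not overlap between the seasons in any of them. VIT_03s0017g01400, of the same ID series as the first, had 1.61 (SE 0.13, limma adjusted p = 1.25e-14), from 1.98 FPKM (SD 1.83) to 10.4 FPKM (SD 11.1), with 6 of 6 pairs higher. VIT_01s0011g06140 had 1.41 (SE 0.11, limma adjusted p = 1.70e-14), from 1.84 FPKM (SD 1.07) to 6.81 FPKM (SD 3.32), again with 6 of 6 pairs higher. These 4 levels were all far under the PV levels of the same genes, which were 53.0 to 137.8 FPKM in 2012.

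All 4 genes of the VIT_03s0017g series passed at MR, with VIT_03s0017g01410 at 1.05 and VIT_03s0017g01460 at 1.05 beside the 2 above. Of the 16 genes in runs of neighbours, 12 passed. Among those that did not were VIT_01s0011g02620, VIT_01s0011g02630 and VIT_01s0011g02660, whose MR means were 0.28 FPKM or less in both seasons.

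Of the 5 genes with the highest scores, 3 passed at MR. VIT_05s0020g04780 had a difference of 1.40 (SE 0.20, limma adjusted p = 1.24e-07), VIT_10s0003g03790 of 0.71 (SE 0.18, adjusted p = 0.00123) and VIT_01s0026g00820 of 0.38 (SE 0.13, adjusted p = 0.0211). VIT_00s0301g00070 at 0.43 (SE 0.18, limma adjusted p = 0.0527) and VIT_01s0011g02360 at 0.39 (SE 0.18, adjusted p = 0.0779) did not pass. VIT_01s0011g02360 was the most divided of the 5 at MR, with a difference of 2.07 in Sangiovese from Riccione and of -2.14 in Sangiovese from Bolgheri.

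The 3 genes with the highest PV levels all passed. VIT_16s0050g01240 rose by 0.60 (SE 0.07, limma adjusted p = 4.47e-10), from 66.5 FPKM (SD 25.6) to 107.9 FPKM (SD 50.6). VIT_07s0005g00660 rose by 0.39 (SE 0.09, adjusted p = 0.000289), with 3617 FPKM (SD 1305) in 2011 and 4603 FPKM (SD 1198) in 2012, and VIT_18s0001g07090 by 0.29 (SE 0.09, adjusted p = 0.00513). In Sangiovese from Bolgheri their differences were -0.30, -0.23 and -0.46 on the log2 scale, and none of the 3 passed (limma adjusted p = 0.163, 0.441 and 0.0743). In Montalcino all 3 passed in Sangiovese, at 1.27, 1.05 and 0.59. In Cabernet Sauvignon from Montalcino the first 2 passed, at 0.95 and 1.32, while VIT_18s0001g07090 had 0.49 (limma adjusted p = 0.0784). In Sangiovese from Riccione limma called VIT_07s0005g00660 lower in 2012, at -0.57 (adjusted p = 0.0408). There VIT_16s0050g01240 at 0.40 and VIT_18s0001g07090 at 0.43 did not pass (limma adjusted p = 0.0683 and 0.116). In Cabernet Sauvignon from Riccione only VIT_16s0050g01240 passed, at 0.80 (limma adjusted p = 0.000524).

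**Figure D4:**
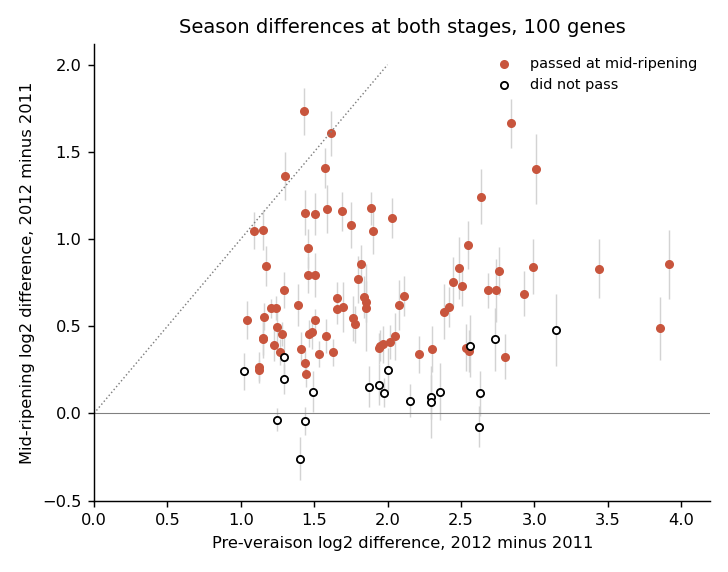
Each point is 1 of the 100 genes, with its mean PV season difference on the x axis and its MR season difference with the limma standard error on the y axis, both as 2012 minus 2011 in log2(FPKM + 1); red points passed at MR, open points did not, and the dotted line marks equal differences. Nearly all points are above 0 and below the dotted line, with no trend between the axes. The choice of the genes on the PV difference favours both the position below the line and a weak trend.

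The sizes of the differences at the stages showed little relation. Over the 100 genes, which share libraries and are not independent, Pearson's r between the differences in the plot of both stages was 0.08 and Spearman's rho 0.09. The 80 genes that passed at MR had a median PV difference of 1.72, and the 20 others had one of 1.99. Among those 20, 16 had an MR difference above 0, with a median of 0.13 over the 20. The 4 genes below 0 at MR were VIT_19s0093g00550 at -0.26, VIT_11s0052g01730 at -0.08, VIT_18s0001g06070 at -0.04 and VIT_02s0012g01320 at -0.04.

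Between cultivars at MR the shares of the 100 genes that differed were near or below those of the background. In limma's test 42 were higher in Sangiovese, against 46.7% of all tested genes, and 24 were lower, against 25.7%. Among genes with at least 5 FPKM over the 2012 PV libraries, 51.2% were higher and 26.8% lower. Areas differed for 67, against 60.2% of all tested genes and 72.5% of those with at least 5 FPKM.

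Single genes differed widely by cultivar. VIT_14s0108g00630 was higher in Sangiovese by 2.46 (SE 0.12, limma adjusted p = 2.08e-25), with group means of 2.99 to 13.8 FPKM in Cabernet Sauvignon and of 8.70 to 52.1 FPKM in Sangiovese. VIT_18s0001g11630 was higher by 2.28 (SE 0.12, adjusted p = 3.37e-24), with 9.93 to 38.2 FPKM against 65.5 to 159.2 FPKM, which do not overlap. VIT_19s0014g03750 was lower in Sangiovese, at -1.77 (SE 0.25, limma adjusted p = 1e-08), with 0.94 to 21.2 FPKM in Cabernet Sauvignon and 0.17 to 5.50 FPKM in Sangiovese. VIT_10s0003g05450 was lower too, at -1.18 (SE 0.13, adjusted p = 8.73e-12), with 20.7 to 40.7 FPKM against 7.43 to 27.8 FPKM. At PV, where the libraries had served the choice, 15 of the 100 were higher in Sangiovese by a log2 difference of at least 1 (4.15% of all tested genes) and 7 lower (4.21%).

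The season difference at MR differed between the cultivars for 25 of the 100 genes in limma's interaction test, against 29.4% of all tested genes. With its sign kept, the season difference was higher in Sangiovese for 5 (12.9%) and higher in Cabernet Sauvignon for 20 (16.5%). Among genes with at least 5 FPKM over the 2012 PV libraries these shares were 15.2% and 20.1%, so the 20 were near the background. VIT_12s0028g03560 had the largest interaction in size among the 100, at -1.82 (SE 0.35, adjusted p = 7.73e-05). In Cabernet Sauvignon its means were 7.58 FPKM (SD 2.12, n = 3) in 2011 and 27.8 FPKM (SD 9.72) in 2012 in Bolgheri, 3.69 (SD 0.57) and 28.8 (SD 2.33) in Montalcino, and 9.19 (SD 3.02) and 16.7 (SD 2.53) in Riccione, where the difference of 0.84 did not pass (limma adjusted p = 0.208). In Sangiovese it was lower in Bolgheri, with 15.9 (SD 6.95) and 5.26 (SD 2.62), and in Riccione, with 13.3 (SD 2.28) and 4.91 (SD 1.54), but higher in Montalcino, with 1.45 (SD 1.15) and 12.1 (SD 1.86).

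VIT_14s0066g01150 had an interaction of -1.32 (SE 0.28, limma adjusted p = 0.000299). Its mean in Cabernet Sauvignon from Montalcino was 2.00 FPKM (SD 0.19, n = 3) in 2011 and 20.6 FPKM (SD 12.2, n = 3) in 2012, where 1 library at 6.58 FPKM stood below the others at 28.0 and 27.3. The Sangiovese means in Montalcino were 3.73 (SD 1.12) and 3.70 (SD 1.43). In the other direction, VIT_05s0094g00360 had an interaction of 0.95 (SE 0.28, adjusted p = 0.00736), and VIT_16s0013g00390 of 0.58 (SE 0.18, adjusted p = 0.0104). For VIT_16s0013g00390 the widest MR difference was in Sangiovese from Montalcino, from 25.5 FPKM (SD 1.51) to 68.3 FPKM (SD 15.9), while Sangiovese from Bolgheri held 22.6 FPKM in both years.

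The stages are described here without a test, since the PV libraries served the choice. On the log2 scale the median MR minus PV difference of the 100 genes was -2.07 in 2012 and -0.89 in 2011. The medians over all tested genes were -0.21 and -0.23. A difference of -1 or less was found for 72 of the 100 in 2012 (19.9% of all tested genes) and for 45 in 2011 (19.8%). A difference of at least 1 was found for 4 in 2012 (6.91%) and 18 in 2011 (6.52%).

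The sign of the stage difference depended on the season for 21 genes, which stood higher at MR than at PV in 2011 and lower in 2012, and for 0 genes the other way round. The choice of genes with a large PV season difference favours this split, so nothing is read from it. For 89 of the 100 the highest of the 4 stage and season means was that of PV in 2012, as the choice favours. The level reached at MR in 2012 was above the PV level of 2011 for 45 genes.

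**Figure D5:**
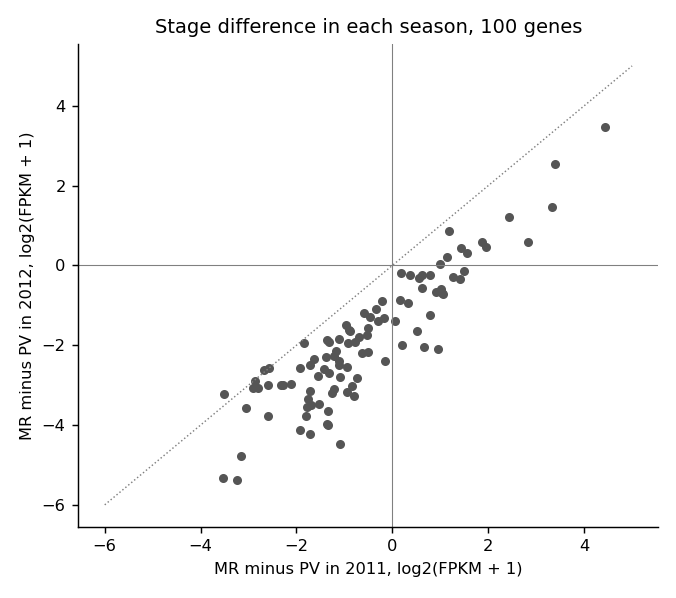
Each point is 1 of the 100 genes, with the mean MR minus PV difference in log2(FPKM + 1) of 2011 on the x axis and of 2012 on the y axis, and the dotted line marks equal differences. Nearly all points lie below the line, 21 fall at the lower right (higher at MR in 2011, lower in 2012), and 0 fall at the upper left. The choice of the genes favours this position.

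The plot of stage differences also shows 4 genes with a difference of at least 1 in both seasons. VIT_03s0038g03570 had 7.25 FPKM at PV and 172.4 FPKM at MR in 2011, and 28.6 and 318.5 FPKM in 2012. VIT_19s0014g03290 had 11.8 and 141.0 FPKM in 2011, and 49.4 and 142.5 FPKM in 2012, and its MR season difference over the 6 pairs was 0.12 (SE 0.08, limma adjusted p = 0.274). That value averages opposite pairs, since limma called it higher in 2012 in Cabernet Sauvignon from Bolgheri (0.88, adjusted p = 0.000536) and Sangiovese from Riccione (0.58, adjusted p = 0.0257) and lower in Sangiovese from Montalcino (-0.67, adjusted p = 0.012). VIT_07s0129g00930 had 50.4 and 286.7 FPKM in 2011, and 144.8 and 313.6 FPKM in 2012. The fourth was VIT_07s0005g00660, the most abundant of the 100.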

How the data were processed

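The deposited table holds FPKM values that the authors made for 29971 gene IDs in 72 libraries, 1 column per library. Tools listed in the submitters' processing notes are Cufflinks 2.1.1, TopHat2 2.0.9 and CASAVA 1.8.2. Not given in the sources used here are the tools' roles and options, the genome build and the annotation. Per the labels' protocols, the libraries were non-directional, so reads of overlapping genes cannot be assigned by strand. FPKM is relative within a library, and absolute depth is unknown. Of values below 3.5 estimated reads in 3003 low genes, 95.3% were within 0.1 of a whole step; values near 1 read had also served to fit the steps.

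Values were used as log2(FPKM + 1). The 2 excluded ID series are VIT_16s0100g and VIT_10s0042g. Genes with a mean of at least 1 FPKM in at least 1 group (20443) entered 1 model in limma 3.58.1 (R 4.3.3). It held 24 group means and left 48 residual degrees of freedom, and its moderated spread followed expression. Two-sided p-values were adjusted by Benjamini-Hochberg over all 20443 genes, with a threshold of 0.05. The MR season contrast averages over the 6 pairs, and the cultivar contrast averages over areas and years. The season by cultivar contrast compares the season difference, averaged over areas, between the cultivars. Areas and season by area used F-tests. The fit was tested on simulated data. Other steps used Python 3.11.15, numpy 2.4.6, pandas 2.3.3 and matplotlib 3.10.9.

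The members and lists were chosen with earlier results of these data known. Named genes are the 5 highest scores, the 3 highest PV levels in 2012, the genes around rank 100, the 4 widest called MR season differences (each way, with at least 5 FPKM in a group), the 2 widest each way for cultivar and for season by cultivar, and genes adjacent by ID. The genes below 0 at MR, those rising in both seasons from PV to MR, the widest PV difference and VIT_16s0013g00450 were named after their values were seen. Alternatives were pseudocounts of 0.1 and 5, other filters and scalings, MR libraries alone, a robust spread, group means as units, a 2-fold threshold, each library left out and, added after seeing the data, each area left out.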

Additional observations from a re-analysis of the deposited data

Results flagged for a closer look

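The MR season difference differed between the cultivars for 25 of the 100 genes and between the areas for 62, by the interaction tests of limma at an adjusted p under 0.05, near or below the shares among all genes with at least 5 FPKM over the 2012 PV libraries (35.3% and 61.9%). Among the genes named here or lying in clusters of the ID order, the difference of differences, Sangiovese minus Cabernet Sauvignon on the log2 scale, passed for 13. It was positive for VIT_05s0094g00360 (0.95), VIT_16s0013g00390 (0.58) and VIT_16s0013g00440 (0.49). It was negative for VIT_12s0028g03560 (-1.82), VIT_14s0066g01150 (-1.32), VIT_14s0108g00630 (-1.27), VIT_03s0017g01410 (-0.997), VIT_18s0001g11630 (-0.93), VIT_03s0017g01460 (-0.87), VIT_01s0011g06140 (-0.71), VIT_18s0001g02020 (-0.66), VIT_07s0005g00660 (-0.61) and VIT_19s0014g03290 (-0.45). For VIT_14s0108g00630 a single pair was far from the rest, with 52.1 FPKM (SD 1.77, n = 3) in 2011 and 8.70 FPKM (SD 1.65, n = 3) in 2012 in Sangiovese from Bolgheri, a difference of -2.47, where the other 5 pairs lay between 0.03 and 1.54.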

How the results depend on the processing

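The count of genes higher in 2012 at MR was 78 to 83 without 1 of the 36 MR libraries at a time, 17 with a log2 difference of at least 1 required and 0 with group means as units. The count of genes lower in 2012 was 0 to 1 without 1 library, with 1 only without replicate 1 of Sangiovese from Bolgheri in 2011. The median MR season difference of 0.54 was 0.69 with a pseudocount of 0.1 and 0.34 with 5, the scale itself changing with the pseudocount. It was 0.51 to 0.57 without 1 library. Without an area, a comparison chosen after seeing the data, it was 0.68 without Bolgheri and 0.37 without Montalcino. Without 1 library, counts were 39 to 44 higher and 21 to 24 lower in Sangiovese, 63 to 69 for areas, 23 to 29 for season by cultivar and 58 to 65 for season by area. Other pseudocounts, filters, scalings and fits gave wider ranges, with 36 to 46 higher and 22 to 29 lower in Sangiovese. In those settings the counts were 49 to 79 for areas, 23 to 33 for season by cultivar and 51 to 77 for season by area. Other scalings moved the median season difference of all tested genes to -0.0031 (median of ratios) and 0.00028 (quantile). Applied again, the rule shared 83 genes with the 100 at a pseudocount of 0.1, 79 at 5, 96 with median-of-ratios scaling, 82 with quantile normalization, and 97 and 91 with minimum levels of 1 and 10 FPKM. With group means as units, the 4 named season differences at MR did not pass, with limma adjusted p from 0.172 to 0.223. Under the other scalings, filters, pseudocounts and fits, and without 1 library, the 12 named season, cultivar and interaction differences at MR kept their calls, and 0 results reversed. No paired analysis was possible because the labels give the groups no shared replicate numbers, so the replicate block was not run. Values near 0 are the least certain, since depth is unknown.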
